A study of Mus musculus with 42 samples.

Results

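Satellite cells, the stem cells of adult skeletal muscle, are isolated by proteins on their surface, and 9 genes for such proteins were followed here: Cd34, Vcam1, Cxcr4, Calcr, Sdc3, Sdc4, Ncam1, Cdh15 and Megf10. They were found by their symbols in the RNA-seq count files, which list 24466 gene symbols, and all 9 passed the filter on low counts that left 14836 genes for testing. The rows were picked by symbol and not by value, from a list chosen with earlier results of these data known. The comparison asked which of these markers iPax7 precursors hold at the level of satellite cells, and how the level moves when Pax7 is withdrawn.

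RNA was sequenced from 3 groups. iPax7 cells are precursors made from 1 mouse embryonic stem cell line that carries a doxycycline (Dox) inducible Pax7, sorted as PDGFαR+Flk-1- cells from embryoid bodies. The +Dox group (n = 3) was kept in 0.75 µg/ml Dox with FGF, and the -Dox group (n = 2) was kept in the same medium without Dox for 3 days. Satellite cells (n = 3) were isolated from skeletal muscle of mice with a Pax7-ZsGreen reporter, and the age of the mice and the number per library are not given in the sources used here. The submitters give 1 sample per group and the libraries are its replicate files, so whether they came from separate cultures or mice is not stated, and p-values measure the spread between these libraries. ATAC-seq, which maps accessible DNA, and ChIP-seq peak lists from the same cells and from C2C12, a mouse myoblast line, were read at the marker loci. The ATAC-seq lists also covered iPax7 cells 12h and 24h after Dox withdrawal, iPax7 and C2C12 myotubes in 2% horse serum, and C2C12 myoblasts in 10% FBS, either plain, with a Flag control or with Pax7-Flag from a retrovirus. Of the ChIP-seq lists, histone marks were read in +Dox, in -Dox at 3d and in both Flag lines of C2C12.

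A quiescent satellite cell lies between the myofibre membrane and the basal lamina, and its surface proteins hold it there, receive signals and fall or rise as it activates. Cdh15 (M-cadherin) and Ncam1 are adhesion molecules, Vcam1 binds integrins on neighboring cells, and Cd34 is a sialomucin. Cxcr4 is the receptor for the chemokine Cxcl12, Calcr is the calcitonin receptor and is known as a marker of quiescent satellite cells, and Megf10 is an engulfment receptor that is also known for regulating satellite cell proliferation. Sdc3 and Sdc4 are syndecans, transmembrane carriers of heparan sulfate chains that present growth factors to their receptors.

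Libraries held 39010958 to 54674619 counts on genes. Pax7 ran from 11610 to 14130 normalized counts in +Dox, was 220.6 and 269.5 in -Dox, and ran from 3926 to 8504 in satellite cells, matching the labels. Alignments listed as not unique equalled 23.58 to 30.68% of all counts listed for a library in satellite cells. In iPax7 cells they equalled 7.11 to 7.6%. The satellite cell libraries also held transcripts of other muscle cell types. The summed level of 8 endothelial markers was 21103 to 26811 normalized counts in satellite cells, with all 8 present, against 399.1 to 950.7 in +Dox and 99.69 to 111.2 in -Dox, where Cdh5 was at 0 in every library. The 8 blood markers summed to 3020 to 10802 in satellite cells, and to 157.5 to 471.7 in +Dox and 204.9 to 331.4 in -Dox, with Ptprc at 0 in both. The 8 mesenchymal markers summed to 58216 to 108424 in satellite cells against 2703 to 9747 in +Dox and 2341 to 2433 in -Dox, and Pdgfra was at 0 in -Dox. Most of the iPax7 sums was Ly6a, with means of 5063 in +Dox and 1418 in -Dox against 2623 in satellite cells. Ly6a and Cd248 were not called in either comparison with satellite cells. The 8 Schwann cell markers summed to 26625 to 33182 in satellite cells, 6528 to 7264 in +Dox and 11712 to 12626 in -Dox. Most of each sum was Pmp22, with means of 21741, 6345 and 11828 in that order, and Sox10 and Cdh19 were at 0 in both iPax7 groups. The 8 smooth muscle and pericyte markers summed to 44471 to 60954, 4406 to 8043 and 66006 to 67089 in the same order. The -Dox sum was mostly Acta2 (53915) and Des (11999), which muscle cells also express, while Rgs5 had 42.82 normalized counts in -Dox against 12814 in satellite cells and Kcnj8 was at 0 in both iPax7 groups. Endothelial cells are known to express Cd34, Vcam1 and Cxcr4, blood cells Cxcr4, and Schwann cells Ncam1. These are examples and not a full list. The part of any cell type above, the mesenchymal cells included, in the differences below was not tested. In bulk RNA, fewer cells of a type and less RNA per cell cannot be told apart.

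With Dox, 7 of the 9 markers were lower in iPax7 cells than in satellite cells, where 23.9% of all genes tested were called lower, and 1, Sdc3, was higher, where 18.2% were called higher. Here a gene is called when its adjusted p in edgeR's quasi-likelihood test is under 0.05 and the difference is at least 2-fold. Megf10 was the 1 marker whose whole 95% interval lay within 2-fold of satellite cells, a position shared by 6.6% of all genes. At 3 days after Dox withdrawal, 6 of the 9 were called and lower than in satellite cells (20.4% of all genes were lower and 17.2% higher), and Sdc3 lay within 2-fold (4.16% of all genes). Ncam1 and Megf10 were neither called nor held within 2-fold. Both comparisons share the satellite cell libraries. Between the iPax7 groups, Ncam1 was higher without Dox (4.63% of all genes were called higher), Vcam1 and Cxcr4 were lower (3.01%), and the interval of Cdh15 lay within 2-fold (10.8%). The median log2 difference of the 9 markers was -2.73 for +Dox against satellite cells, beside -0.17 over all genes, -3.68 beside -0.23 for -Dox against satellite cells, and -0.73 beside 0.00 for -Dox against +Dox.

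**Figure D1:**
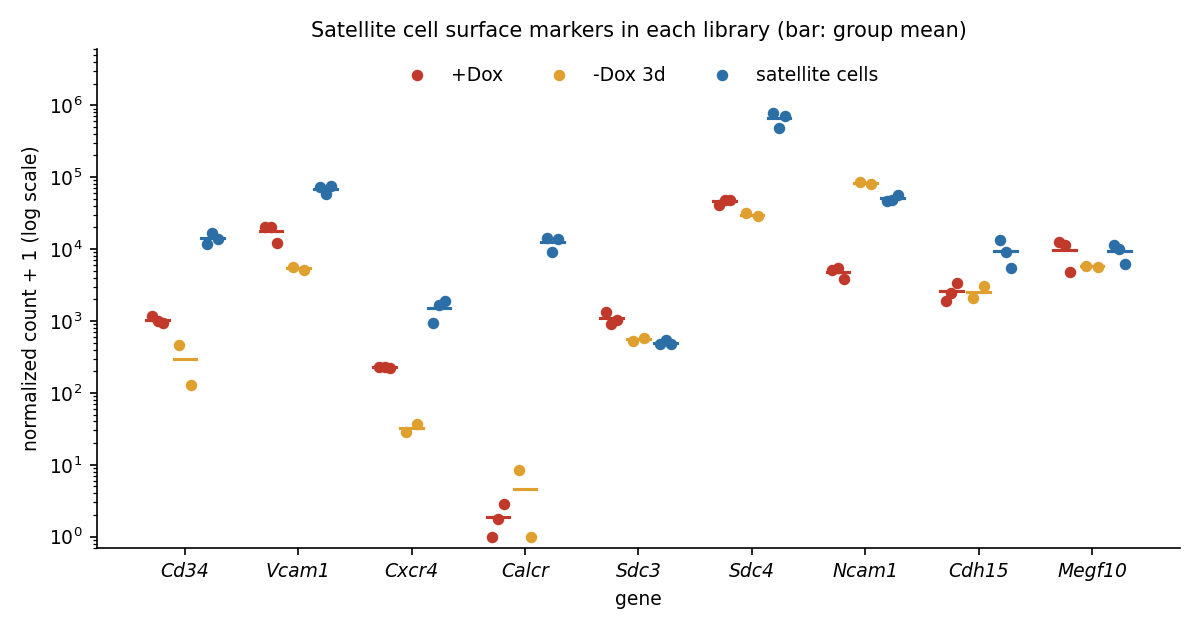
Normalized count plus 1 (log axis) of each marker in every library, with 3 +Dox, 2 -Dox and 3 satellite cell libraries as points and the group mean as a bar. Calcr lies at 0 to 7.352 normalized counts in all 5 iPax7 libraries and at 9206 or more in satellite cells, and the -Dox points of Ncam1 lie above those of both other groups.

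The adhesion molecules differed among themselves. Vcam1 had 20397, 20426 and 12034 normalized counts in the 3 +Dox libraries, 5617 and 5122 in -Dox, and 72393, 58253 and 76110 in satellite cells. The 3 groups did not overlap and stood in the order satellite cells, +Dox, -Dox, although +Dox replicate 3 lay well below the other two. Vcam1 was 3.91-fold lower in +Dox than in satellite cells (log2 -1.97 ± 0.266 SE, adjusted p = 0.000405) and 12.8-fold lower in -Dox (adjusted p = 9.01e-05). Its level fell by 1.71 on the log2 scale after withdrawal (SE 0.305, adjusted p = 0.00873). That call was lost when either -Dox library was left out, with adjusted p = 0.0872 without replicate 1 and 0.112 without replicate 2, fits in which the lone -Dox library is assumed to vary like the other groups.

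Cd34 had 1157, 988.6 and 926.1 normalized counts in +Dox, 456.7 and 129.2 in -Dox, and 11597, 16637 and 13913 in satellite cells. The satellite cell libraries lay more than 10 times above every iPax7 library, and the -Dox pair differed more from each other than the +Dox libraries did. Cd34 was 13.7-fold lower in +Dox (log2 -3.78 ± 0.446 SE, adjusted p = 0.000201) and 47.9-fold lower in -Dox than in satellite cells (adjusted p = 0.000154). Between the iPax7 groups the log2 difference was -1.80 (SE 0.48) and missed the threshold at adjusted p = 0.0521. It passed under 7 alternatives, among them DESeq2 (adjusted p = 0.00375) and limma-voom (0.0347). Only 1 of the 7 was a fit with a library left out, the one without -Dox replicate 1. That fit keeps only the lower -Dox library (129.2), which is assumed to vary like the other groups. Cd34 was not called in any other fit with 1 library left out.

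Ncam1 had 5060, 5452 and 3891 normalized counts in +Dox, 85199 and 81174 in -Dox, and 46301, 48734 and 56292 in satellite cells. It was the marker with a level above satellite cells in every -Dox library. Ncam1 was 10.5-fold lower in +Dox than in satellite cells (log2 -3.39 ± 0.235 SE, adjusted p = 1.36e-05) and rose 17.3-fold on withdrawal (log2 4.11 ± 0.252 SE, adjusted p = 3.04e-05). Against satellite cells the -Dox level was 1.65-fold higher (log2 0.72, 95% interval 0.19 to 1.25, adjusted p = 0.0367), under the 2-fold bar. Over all alternatives that adjusted p ran from 0.0132 to 0.194. The 9 markers of differentiated muscle summed to 1787123 to 1842526 normalized counts in -Dox, 7756 to 9193 in +Dox and 8522 to 15189 in satellite cells, so Ncam1 rose in the same libraries as the differentiation genes, whose part in its level was not tested.

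Cdh15 had 1906, 2432 and 3396 normalized counts in +Dox, 2057 and 3073 in -Dox, and 13528, 9147 and 5476 in satellite cells. The iPax7 groups overlapped, and both lay under every satellite cell library. Cdh15 was 3.64-fold lower in +Dox (log2 -1.86 ± 0.38 SE, adjusted p = 0.00373) and 3.66-fold lower in -Dox (log2 -1.87 ± 0.441 SE, adjusted p = 0.0089). The second call was lost without -Dox replicate 1 (adjusted p = 0.0923). Withdrawal moved it by -0.01 on the log2 scale with an interval from -0.93 to 0.92.

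Among the receptors, Calcr and Megf10 differed most in their distance from satellite cells in +Dox. Calcr had 0, 1 and 2 reads in the +Dox libraries, 8 and 0 in -Dox, and 10800, 6868 and 10295 in satellite cells. It was thus at or near 0 in all iPax7 libraries and among the well expressed genes of satellite cells. The ratio of satellite cells to +Dox, from 27963 reads against 3 scaled by library size, was 15600, with an exact 95% interval from 5320 to 75500 that covers counting error only. The same ratio to -Dox, against 8 reads, was 3350 (1700 to 7770). Calcr was called lower in both comparisons (adjusted p = 1.04e-05 and 5.96e-05), and no difference between the iPax7 groups was detectable at this depth.

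Cxcr4 had 224.6, 227.3 and 224.0 normalized counts in +Dox, 27.57 and 36.00 in -Dox, and 936.0, 1692 and 1873 in satellite cells. The groups stood apart in the same order as for Vcam1, and the +Dox libraries were closer to one another than for any other marker. Cxcr4 was 6.65-fold lower in +Dox than in satellite cells (log2 -2.73 ± 0.408 SE, adjusted p = 0.000719) and 47.0-fold lower in -Dox (adjusted p = 0.000133). It dropped by 2.82 on the log2 scale on withdrawal (SE 0.491, adjusted p = 0.00769), a call lost without -Dox replicate 1 (adjusted p = 0.096), without -Dox replicate 2 (0.0649) and in limma-voom (0.0792).

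Megf10 had 12447, 11469 and 4720 normalized counts in +Dox, 5887 and 5626 in -Dox, and 11401, 10152 and 6238 in satellite cells. The +Dox and satellite cell libraries overlapped, and +Dox replicate 3 lay below every library of the other groups. The log2 difference of +Dox from satellite cells was 0.04 with an interval from -0.80 to 0.88 (adjusted p = 0.939). That interval stayed within 2-fold by a narrow margin. The interval reached past 2-fold when any 1 +Dox or satellite cell library was left out, with scaling by total counts (-0.49 to 1.36) and when only these groups were fitted (-0.82 to 1.03). Without +Dox replicate 3 the difference was 0.37 (-0.27 to 1.00). In -Dox the difference from satellite cells was -0.69 (-1.64 to 0.27, adjusted p = 0.223), which settles neither case.

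The syndecans went opposite ways. Sdc4 had 40417, 48809 and 48447 normalized counts in +Dox, 31313 and 28814 in -Dox, and 786929, 476110 and 700880 in satellite cells, where it took 0.904 to 1.53% of all counts on genes. Sdc3 had 1332, 912.3 and 1034 in +Dox, 533.0 and 578.8 in -Dox, and 473.9, 545.6 and 481.4 in satellite cells. Every iPax7 library lay far below the satellite cells for Sdc4, whereas for Sdc3 the +Dox libraries lay above all others and the -Dox and satellite cell libraries overlapped. Sdc4 was 14.3-fold lower in +Dox (log2 -3.83 ± 0.264 SE, adjusted p = 1.36e-05) and 21.8-fold lower in -Dox than in satellite cells (adjusted p = 3.34e-05), with a log2 difference of -0.61 between the iPax7 groups that was not called (adjusted p = 0.224). Sdc3 was 2.18-fold higher in +Dox (log2 1.13 ± 0.334 SE, adjusted p = 0.0218), a call lost without +Dox replicate 1 (log2 1.01, adjusted p = 0.0808). Between the iPax7 groups the log2 difference of Sdc3 was -0.98 (-1.83 to -0.12) and was not called (adjusted p = 0.171 in the edgeR test). In -Dox its difference from satellite cells was 0.15 (-0.67 to 0.98), and that interval reached 2-fold or more under 11 of the 17 alternatives.

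**Figure D2:**
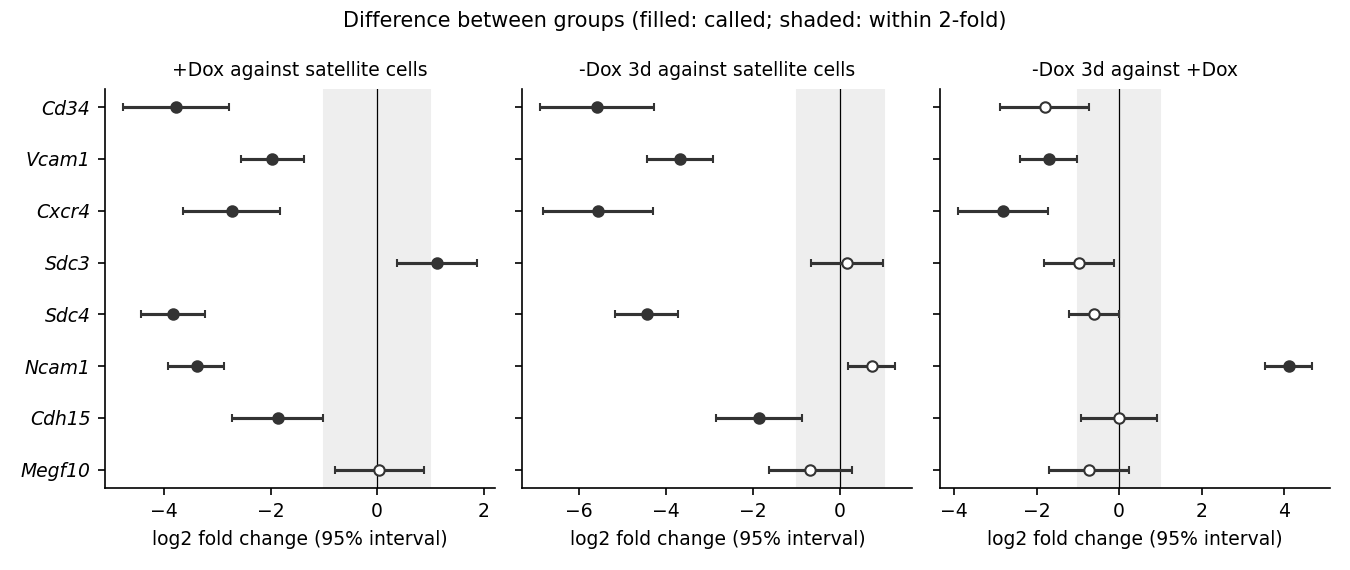
Log2 fold change with its 95% interval for 8 markers in the 3 comparisons, filled where called, with differences within 2-fold shaded. Megf10 in +Dox and Sdc3 in -Dox are the intervals against satellite cells that stay inside the shading. Calcr is left off, since its iPax7 libraries hold 0 to 8 reads.

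Levels of different genes were compared per kb of exon. In satellite cells the order of the mean normalized count per kb was Sdc4 (257024), Vcam1 (14016), Cd34 (5360), Ncam1 (4984), Calcr (3148), Cdh15 (2886), Megf10 (1200), Cxcr4 (829.7) and Sdc3 (83.53). The ranges of Cd34 and Ncam1, of Calcr and Cdh15, and of Megf10 and Cxcr4 overlapped, so those neighbors were not told apart. Sdc4 stood at rank 5 of the 20478 genes with an annotated length in satellite cells, and at rank 154 in +Dox and 297 in -Dox.

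In +Dox the order per kb was Sdc4 (18018), Vcam1 (3583), Megf10 (1237), Cdh15 (792.9), Ncam1 (474.4), Cd34 (390.6), Sdc3 (182.5), Cxcr4 (124.6) and Calcr (0.2179). Megf10 overlapped with Cdh15 and Ncam1 with Cd34. Megf10 thus stood in the third place, and in the seventh in satellite cells, at a like level per kb. In -Dox Sdc4 (11803 per kb) was followed by Ncam1 (8219), Vcam1 (1092), Cdh15 (788.9) and Megf10 (745.9), and then by Cd34 (111.8), Sdc3 (92.82), Cxcr4 (17.58) and Calcr (0.9382). Cdh15 and Megf10 overlapped there, as did Cd34 and Sdc3.

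**Figure D3:**
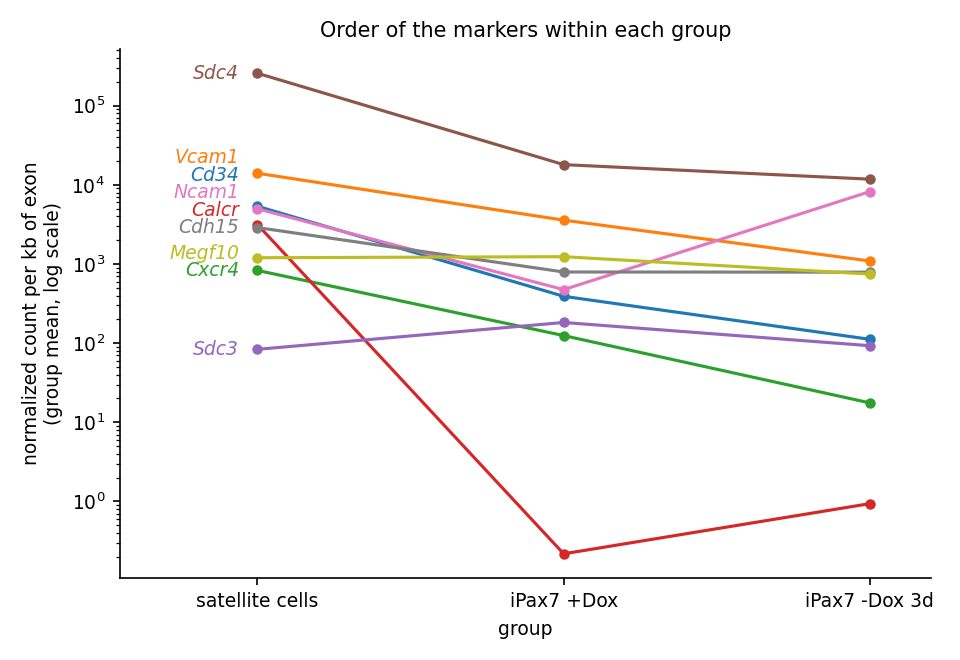
Mean normalized count per kb of exon (log axis) of each marker in satellite cells, +Dox and -Dox, joined by a line for each gene. Sdc4 is at the top of all 3 groups, and the line of Ncam1 goes down from satellite cells to +Dox and up again in -Dox.

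Other surface proteins known from satellite cells were read as a list. Of 24 such genes, 15 were lower and 2 higher in +Dox than in satellite cells, with a median log2 difference of -1.75, beside 23.9% and 18.2% of all genes. Cav1, which shapes caveolae, had 735.8 ± 50.39 (SD) normalized counts in +Dox and 71515 ± 9736 in satellite cells (log2 -6.60). Integrin Itga7, a laminin receptor, differed by -6.16 and Fgfr1, an FGF receptor, by -5.82. N-cadherin (Cdh2) was higher in +Dox (log2 4.44, 11199 ± 1552 against 514.3 ± 363.5), as was the integrin Itga6 (1.49). N-cadherin thus stood opposite to M-cadherin. In -Dox 13 of the 24 were lower and 4 higher than in satellite cells (median -1.61), beside 20.4% and 17.2% of all genes. Fgfr4 (-6.53), Cav1 (-6.36) and Fgfr1 (-5.50) had the largest differences downward, and Erbb3 (4.68), Cdh2 (4.64) and Gpc1 (1.80) upward. On withdrawal 4 rose, with Itga7 (3.30), Cd200 (2.55) and Dag1 (1.52) first, and 2 fell, Fgfr4 (-2.99) and Egfr (-2.25), with a median of 0.22 over the list, beside 4.63% and 3.01% of all genes. All values in this paragraph passed adjusted p under 0.05 in edgeR where a direction is named.

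Ligands and binding partners of the markers were read next. Of the 26 tested, 13 were lower and 1 was higher in +Dox than in satellite cells (median log2 -1.29), and 15 were lower and 4 higher in -Dox (median -2.63), with the same shares over all genes beside them. Cxcl12, the ligand of Cxcr4, had 92.98 ± 103.5 (SD) normalized counts in +Dox and 638.5 ± 142.7 in -Dox against 5067 ± 856.5 in satellite cells (log2 -5.76 and -2.99). Ackr3, the other receptor for Cxcl12, was lower too (-4.75 and -4.18). Sele, a selectin that can bind sialomucins, had no read in any iPax7 library and 1030 ± 363.3 normalized counts in satellite cells. Col5a3 and Col5a1, chains of collagen V, which is known as a ligand of Calcr, were at 9.148 ± 9.074 and 56.27 ± 13.19 in +Dox and at 4450 ± 2002 and 3192 ± 578.6 in satellite cells. They were the ligands called higher on withdrawal (log2 3.13 and 2.46), while adrenomedullin (Adm, -2.52) and plakoglobin (Jup, -1.25) fell. Over all genes, 4.63% were called higher on withdrawal and 3.01% lower. Ramp3, a partner of calcitonin-type receptors, was the 1 gene of this list called higher in +Dox (log2 2.25). Ramp1 was called lower in +Dox (-4.7, at means of 1.481 against 42.23 normalized counts) and was not called in -Dox. Ramp2 was called lower in -Dox (-5.06) and was not called in +Dox (-1.95). In -Dox Itga4, which pairs with integrin chains to bind Vcam1, was higher (4.88), as were Ramp3 (2.38) and Crcp (1.32). Calca and L1cam, at 19.21 ± 4.211 and 6.646 ± 1.902 in +Dox and 388.1 ± 246.4 and 257.1 ± 199.9 in satellite cells, were lower in both iPax7 groups.

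A further list held enzymes that build, edit or cleave heparan sulfate, other proteoglycans that carry it and a syndecan binding protein. Of 23 tested, 7 were lower and 2 higher in +Dox than in satellite cells (median log2 -0.53), beside 23.9% and 18.2% of all genes. In -Dox 6 were lower and 2 higher (median -0.84), beside 20.4% and 17.2%. On withdrawal 2 rose and 3 fell (median -0.17), beside 4.63% and 3.01% of all genes. The paired 6-O-endosulfatases differed in opposite directions. Sulf1 was lower in +Dox (68.05 ± 54.35 against 16118 ± 3184 normalized counts, log2 -7.88) and Sulf2 higher (4386 ± 151.8 against 212.9 ± 88.68, log2 4.36). Sulf1 rose on withdrawal (log2 4.51) and so did the glypican Gpc1 (1.38), while Hs3st1 (-6.41) and Hs3st3b1 (-3.09), sulfotransferases, and the glypican Gpc6 (-1.80) fell. The glypican Gpc4 (-4.92) and Ndst1 (-2.17) were lower and Hs6st1 (1.32) higher in +Dox than in satellite cells. In -Dox against satellite cells the largest differences downward were those of Hs3st1 (-7.78), Hs3st3b1 (-4.63) and Sulf1 (-3.36), and the upward ones were Sulf2 (3.99) and Gpc1 (1.80).

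Ncam1 carries polysialic acid, and 5 genes of its synthesis were tested. In +Dox 3 were called higher than in satellite cells, beside 18.2% of all genes (Nans 2.81, Gne 2.24 and Cmas 1.45 on the log2 scale). In -Dox 3 were higher, beside 17.2% (St8sia2 4.73, Nans 3.14 and Cmas 2.45). On withdrawal St8sia2 rose (3.69), beside 4.63% of all genes. St8sia2, a polysialyltransferase that acts on Ncam1, had 319.1 ± 232.4 normalized counts in +Dox, 4134 ± 1541 in -Dox and 156.0 ± 68.03 in satellite cells. St8sia4, the other polysialyltransferase of Ncam1, had 234.4 ± 70.05, 874.9 ± 263.9 and 634.2 ± 423.9 in the same order and was called in no comparison, with a log2 difference of -1.44 (-2.85 to -0.02) for +Dox against satellite cells.

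Genes whose profile over the 8 libraries was most like that of each marker were sought by the root-mean-square difference of log2(normalized count + 1) after centering each gene on its mean. Calcr was the least matched: its nearest genes were the immediate-early factor Fosb (0.69), Entpd2 (0.70) and Abca8a (0.72), with means of 12.24, 0.6071 and 1.348 normalized counts in +Dox. Sdc4 lay near Myd88 (0.22), Ccnl1 (0.25) and Ier3 (0.28), and Ncam1 near Map1b (0.21), Tgfbi (0.30) and Slc29a1 (0.39). Vcam1 lay near Pde4d (0.22), Vsig10 (0.28) and Wipf1 (0.29), Cxcr4 near Tshr (0.39) and Nedd4l (0.51), and Cd34 near 1810011O10Rik (0.40), Prkd2 (0.44) and Pdgfrl (0.48). The closest genes were Fam149a (0.17), Pgam1 (0.19) and Sergef (0.19) for Sdc3, Lrrc17 (0.21), Taok3 (0.24) and Cd47 (0.27) for Cdh15, and Zfp740 (0.18), Mbtps1 (0.18) and Rfx7 (0.21) for Megf10. No marker was among the 3 nearest genes of another.

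The genes lie on NCBIM37 (mm9) as follows in the annotation used, with exons summed to between 1.81 and 10.12 kb. Cd34 spans chromosome 1 from 196765015 to 196787486 on the forward strand and Cxcr4 chromosome 1 from 130484776 to 130488870 on the reverse strand. Sdc4 lies on chromosome 2 (164249747 to 164269387, reverse), Vcam1 on chromosome 3 (115812938 to 115832606, reverse) and Sdc3 on chromosome 4 (130348452 to 130382234, forward). Calcr lies on chromosome 6 (3635677 to 3714713, reverse), Cdh15 on chromosome 8 (125371866 to 125391297, forward), Ncam1 on chromosome 9 (49310257 to 49607027, reverse) and Megf10 on chromosome 18 (57292744 to 57457121, forward). Exons of Cd34, Sdc3 and Ncam1 overlap antisense genes over 148, 48 and 254 bases, and the strand setting of the counting is not given, so reads there cannot be assigned to a strand.

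Accessible promoters did not set the markers apart as a list. An ATAC-seq region within 1 kb of a start site was present at 8 of 9 markers in +Dox (88.7% of all 13365 genes tested with an annotation) and at 9 of 9 in satellite cells (85.0%). Calcr was the exception. Its promoter had no region in +Dox, in -Dox at 24h or 3d, in iPax7 myotubes or in any C2C12 list, and a region of 2.45-fold enrichment at 12h, at percentile 4.7 of that list. In satellite cells the Calcr promoter was 12.50-fold enriched, at percentile 83.3. The levels are given as percentiles since each list is 1 merged sample called on its own, and there is no replicate check.

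**Figure D4:**
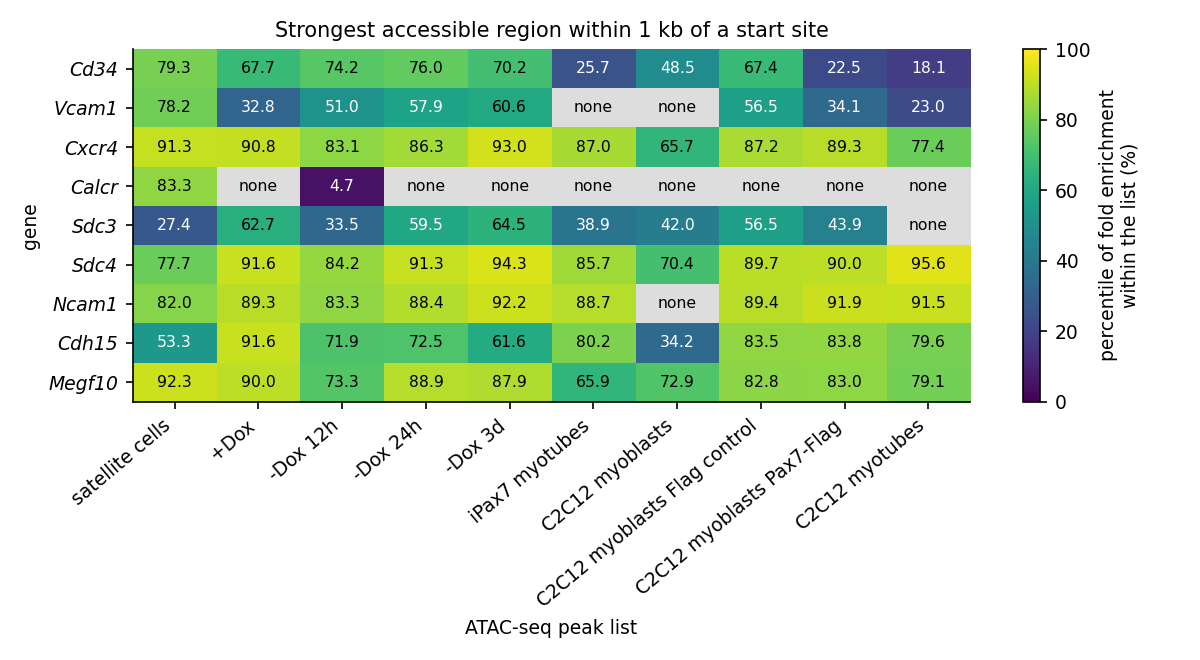
Percentile, within its own peak list, of the strongest ATAC-seq region within 1 kb of a start site of each marker (rows) in each list (columns), gray where there is none. Calcr is filled in satellite cells (83.3) and, at 4.7, in -Dox at 12h, and Cxcr4 is at or above 65.7 in all 10 lists.

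Marks on histones were read at the same windows of 2001 bases. H3K27me3, the mark of Polycomb repression, covered 2001 bases of a Calcr start-site window in +Dox and 1645 in -Dox, and 1660 and 2001 in C2C12 cells with the Flag control and with Pax7-Flag. A region of this mark lay within 1 kb of the start at 20.1% of genes in +Dox, and at 3 of the 9 markers, Cd34 (294 bases), Ncam1 (282 bases) and Calcr. With a window of 500 bases, Calcr alone had one. No list of this mark from satellite cells was analysed here. H3K27Ac, a mark of active elements, lay at 6 of 9 markers in +Dox (73.1% of genes) and 5 of 9 in -Dox (69.2%). It covered 1786 bases at Cxcr4 and 388 at Sdc3 in +Dox and 0 at both in -Dox. At Ncam1 it went from 0 in +Dox to 835 bases in -Dox, and at Calcr and Cd34 it was 0 in both. H3K4me3, a mark of start sites, covered 423 bases at Calcr in +Dox and 249 in -Dox, less than at the other 8 markers (726 to 2001 and 1289 to 1927). H3K4me1 likewise covered 425 and 234 bases at Calcr against 1029 to 1912 and 675 to 1812 at the others.

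The Calcr promoter is shown because it is the marker with no accessible region in +Dox. Calcr has 6 annotated starts, and the bases shown lie at the outermost. The ATAC-seq and histone values above are the highest over the windows of all 6, which need not be at this one. It is taken from NCBIM37, chr6:3714664-3714963 on the reverse strand, from 250 bases before the start of the gene on, and capitals mark its 4 CpG dinucleotides. The median over 13365 promoters of this length was 18, and Calcr lay at percentile 9.1. Cdh15 (2) and Vcam1 (1) had fewer and Sdc3 (44) the most of the 9.
Calcr promoter: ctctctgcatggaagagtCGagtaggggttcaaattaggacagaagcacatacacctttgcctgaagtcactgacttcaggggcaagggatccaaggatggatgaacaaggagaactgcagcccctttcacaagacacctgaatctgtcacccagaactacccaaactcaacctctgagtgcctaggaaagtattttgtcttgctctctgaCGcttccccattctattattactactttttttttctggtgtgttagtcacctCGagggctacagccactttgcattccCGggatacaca

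Pax7 binds DNA with a paired domain and a homeodomain. Pax7 sites, as the authors listed them from +Dox cells, numbered 2455. One or more lay within 100 kb of a start site of 4 of the 9 markers, Vcam1, Cxcr4, Ncam1 and Cdh15, where 23.3% of all genes had one. Vcam1 and Cxcr4 were the nearest start to a site, which held for 7.89% of genes. They are also the markers called lower on Dox withdrawal, and Ncam1 the one called higher. The paper had named Vcam1, Cxcr4 and Cd34 in a group of adhesion genes that fell after Dox removal, several of them Pax7 targets. Its group was picked at 2-fold or more. Cd34 missed the call on withdrawal here (log2 -1.80, adjusted p = 0.0521 in edgeR) and had no site within 100 kb. The pairing of a nearby site with a fall at Vcam1 and Cxcr4 was thus known beforehand. As 2 of 9 is a small number, no test was made of this. Cd34, Calcr, Sdc3, Sdc4 and Megf10 had no site within 100 kb.

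The Vcam1 site (chr3:115828757-115830563) lies in an intron, 2.71 kb downstream of a start of the gene. It was 26.26-fold enriched in ATAC-seq with Dox (percentile 93.2) and 6.07-fold 12h after withdrawal (62.2), 10.11-fold at 24h (73.6) and 8.14-fold at 3d (68.1). In satellite cells it was 15.82-fold enriched (88.5). In C2C12 myoblasts with the Flag control it was 2.88-fold (percentile 3.2) and with Pax7-Flag 11.84-fold (74.0), and it was absent from the lists of C2C12 myoblasts and myotubes. H3K27Ac, H3K4me1 and H3K4me3 covered it in both iPax7 groups. The same marks covered it in C2C12 cells with the Flag control as well as with Pax7-Flag.

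The Cxcr4 site lies outside the gene, past its 3′ end. No ATAC-seq list had a region there, where 95.4% of all Pax7 sites overlapped one in +Dox. H3K27Ac and H3K4me1 overlapped it in +Dox and not in -Dox, and in C2C12 cells with Pax7-Flag and not with the Flag control. Over all 2455 sites H3K27Ac overlapped 73.2% in +Dox and 37.9% in -Dox, so its absence in -Dox is common. For H3K4me1 the shares were 91.2% and 73.8%. In C2C12 cells with the Flag control and with Pax7-Flag, H3K27Ac overlapped 40.6% and 64.4% of sites and H3K4me1 44.8% and 83.2%. H3K4me3 overlapped the Cxcr4 site in both iPax7 groups.

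Both Ncam1 sites lie upstream, at 17.47 kb (chr9:49624117-49624877) and 28.88 kb (chr9:49635709-49636110), and the nearest annotated start to each is that of a U6 gene. They overlapped an ATAC-seq region in all 10 lists. The first was 27.12-fold enriched in +Dox and 51.05-fold at 3d (percentiles 93.6 and 97.9), and the second 24.79-fold and 38.75-fold (92.6 and 96.2). The distal site was weaker in iPax7 myotubes (percentile 48.4), C2C12 myotubes (54.5) and C2C12 myoblasts (59.6). Both sites stayed accessible when Pax7 was withdrawn. That is common, since 63.2%, 63.4% and 68.0% of all Pax7 sites overlapped a region at 12h, 24h and 3d. H3K27Ac, absent at both Ncam1 sites in +Dox, overlapped the first in -Dox. The Cdh15 site (chr8:125298765-125299971) is 72.5 kb upstream with Acsf3 nearer, and its ATAC-seq region was at percentile 32.8 in +Dox.

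**Figure D5:**
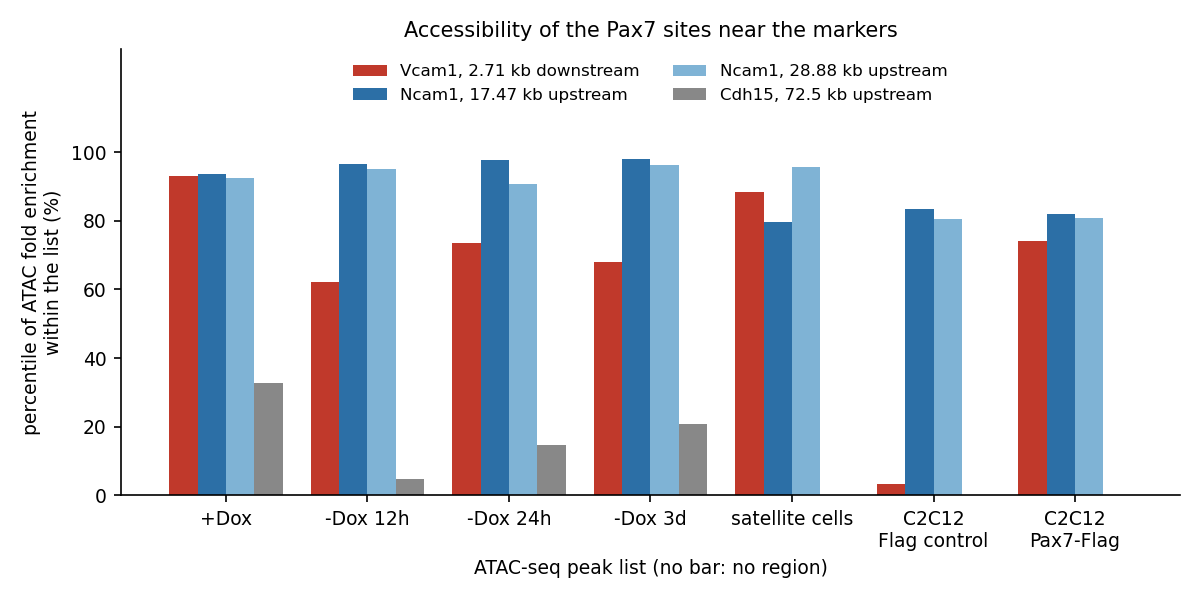
Percentile of ATAC-seq fold enrichment within each list at the Pax7 sites near Vcam1, Ncam1 and Cdh15, with no bar where there was no region; the Cxcr4 site had none in any list. The Vcam1 bar is 93.2 with Dox, 62.2 at 12h without it and 3.2 against 74.0 in C2C12 cells without and with Pax7-Flag, while both Ncam1 bars are at 79.8 or more in the 7 lists shown, which leave out the myotubes and plain C2C12 myoblasts.

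The central 300 bases of the Vcam1 and Ncam1 sites are shown, from markers called between the iPax7 groups. They are read from the forward strand of NCBIM37 at chr3:115829510-115829809, chr9:49624347-49624646 and chr9:49635759-49636058. Capitals mark GTCAC, letters of the paired-domain core, on either strand, where the reverse strand reads GTGAC. The homeodomain letters TAATTA were searched as well, with the pairs TAATNNATTA and TAATNNNATTA, on both strands.
Vcam1 site 2.71 kb downstream: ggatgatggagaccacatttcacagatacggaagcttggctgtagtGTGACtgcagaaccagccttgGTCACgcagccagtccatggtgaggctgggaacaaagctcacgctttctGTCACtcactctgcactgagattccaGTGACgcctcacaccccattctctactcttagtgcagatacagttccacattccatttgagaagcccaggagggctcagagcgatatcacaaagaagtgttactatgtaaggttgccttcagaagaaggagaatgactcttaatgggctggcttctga
Ncam1 site 17.47 kb upstream: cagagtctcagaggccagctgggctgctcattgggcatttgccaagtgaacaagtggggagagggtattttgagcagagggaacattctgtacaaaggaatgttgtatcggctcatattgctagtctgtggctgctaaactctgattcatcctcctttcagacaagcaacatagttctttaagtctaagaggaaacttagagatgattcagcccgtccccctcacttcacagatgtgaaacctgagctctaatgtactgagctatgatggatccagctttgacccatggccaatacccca
Ncam1 site 28.88 kb upstream: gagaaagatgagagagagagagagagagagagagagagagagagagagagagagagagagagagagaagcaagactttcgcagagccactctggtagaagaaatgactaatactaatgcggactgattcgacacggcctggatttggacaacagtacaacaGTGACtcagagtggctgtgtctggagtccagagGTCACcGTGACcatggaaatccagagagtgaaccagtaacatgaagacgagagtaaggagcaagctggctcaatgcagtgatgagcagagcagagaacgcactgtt

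GTCAC occurred 4 times in the central 300 bases of the Vcam1 site and 3 times in those of the distal Ncam1 site. At least 1 match was present in 49.1% of all 2455 Pax7 sites and in 45.7% of 13365 promoters of the same length, at least 3 in 4.6% of sites and 3.16% of promoters, and at least 4 in 0.611% of sites and 0.666% of promoters. TAATTA was in none of the 3 windows, and was in 9.74% of Pax7 sites and 2.93% of promoters. The pairs with a spacer of 2 and of 3 bases were in 1.02% and 1.71% of Pax7 sites and in 0.195% and 0.180% of promoters. A match describes letters only, and the absence of one says only that they are not in that window.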

How the data were processed

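For each RNA library the authors deposited a table of read counts by gene symbol, not normalized, as HTSeq-count writes it. The submitters' processing notes name TopHat2 2.0 and HTSeq 0.6 and the mm9 build, without saying which step used which. The authors also deposited ATAC-seq peaks (MACS2 2.0.10, replicates merged) with their fold enrichment, a ratio, and −log10 p and q values, and ChIP-seq regions called with Qeseq on merged replicates. Pax7 sites are regions the authors found in at least 2 +Dox replicates and in no -Dox replicate. Other ChIP-seq samples were not analysed here.

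Counts were fitted in edgeR 4.0.16 (R 4.3.3) with TMM scaling, filterByExpr, all 8 libraries, 1 mean per group and the quasi-likelihood test with Benjamini-Hochberg adjustment over the 14836 genes tested. Normalized counts were scaled from each effective library size to the geometric mean over the 8 libraries. Intervals (95%) use an SE equal to the log2 fold change over the square root of F. Alternatives used DESeq2 1.42.0, limma-voom (limma 3.58.1), other scalings and filters, a replicate block and fits without each library. Replicate numbers come from the deposited files.

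Lengths, start sites and sequence come from GENCODE M1 and NCBIM37, the assembly also named mm9. Every region ended inside its chromosome. Promoter windows reached 1 kb on each side of every annotated start. The markers and gene lists were chosen with earlier results of these data known. Named genes are the 9 markers, Pax7 as a check of the labels, from each other list up to 3 called genes per direction with the largest change, and the 3 genes most like each marker; single ligands, enzymes and marker genes beyond these were named after their values were seen. A few genes and 1 sequence that these rules would name are not reported here.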

Additional observations from a re-analysis of the deposited data

How the results depend on the processing

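The direction and call of the 27 log2 differences of the markers were kept in 431 of 458 refits. All 13 changes of sign were of differences that had not been called: Megf10 in +Dox against satellite cells was -0.03 with DESeq2, RLE scaling and the replicate block, -0.02 in limma-voom and -0.18 to 0.37 with 1 library left out, Cdh15 between the iPax7 groups was 0.02 with DESeq2 and RLE scaling, 0.01 in limma-voom and -0.32 to 0.25 with 1 library left out, and Calcr between the iPax7 groups was -2.91 to 3.03 with 1 library left out. Calcr did not pass the filter in the fit of the iPax7 groups alone and has no value there. The number of markers within 2-fold of satellite cells fell from 1 to 0 in +Dox with total counts and in the fit of these groups alone, and in -Dox with upper-quartile scaling, total counts, no filter, these groups alone, the replicate block and limma-voom. With 1 library left out it was 0 to 1 in both comparisons. The number of markers called between the iPax7 groups was 1 to 4 with 1 library left out, being 1 (Ncam1) without -Dox replicate 2. Over all genes that comparison called 1134, and 2002 with DESeq2, 1950 in the fit of these groups alone, 741 with the replicate block and 488 to 1374 with 1 library left out, with 674 and 630 without +Dox replicates 1 and 2 and 508 and 488 without -Dox replicates 1 and 2. For -Dox against satellite cells 5579 genes were called, and 3204 to 5821 with 1 library left out, the lowest without -Dox replicate 1 and 3382 without replicate 2. Deviations from the group mean of libraries with the same replicate number correlated between -0.0398 and 0.0272. With 2 or 3 libraries a group, that cannot settle whether replicate numbers pair the libraries. The main fit used no pairing. The replicate block changed no call of a marker. With a window of 500 bases H3K27me3 was at 1 marker in both iPax7 groups. With at least 50% of a Pax7 site covered, H3K4me3 in +Dox covered 2 of the 5 sites (4 overlapped) and H3K27me3 in -Dox 0. The cause of these shifts was not tested. The median of all genes moved with the scaling, from -0.17 to 0.20 with total counts for +Dox against satellite cells and from 0.00 to -0.22 for -Dox against +Dox, and no called marker changed direction. With 3, 2 and 3 libraries, differences under about 2-fold could mostly not be settled.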
